A study of Sus scrofa with 19 samples.

Results

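The circadian clock genes described here are PER1, PER2, PER3, CRY1, CRY2, NR1D1, NR1D2, DBP, CLOCK and CIART, measured by RNA-seq in heart tissue of 19 pigs. The 10 genes were found by symbol in the gene table of the authors and followed by Ensembl identifier into the count files, where all 10 were present among 25879 genes. All 10 also passed the filter on low counts, which kept 13552 genes. ARNTL and NPAS2, the partners of CLOCK, were measured beside them as part of a longer list of clock genes.

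The clock is a feedback loop that runs in almost every cell, heart muscle included. CLOCK pairs with ARNTL (BMAL1) or NPAS2, and the pair binds E-box sequences and switches on the PER and CRY genes, the NR1D genes and DBP, after which PER and CRY proteins shut the pair off and NR1D1 and NR1D2 repress ARNTL. Transcripts of ARNTL and of PER, NR1D and DBP therefore peak at opposite times of day, so tissue taken at different hours can differ in all of them at once. The labels and methods used here give no hour of tissue collection.

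Large White pigs formed 5 groups. Group DOX (n = 5) received doxorubicin and group MYO (n = 5) its liposomal form Myocet, both at 60 mg/m2 of body surface in each of 3 cycles, with tissue taken after 3 months because the animals were in poor health. Group RemoLV (n = 3) had a coronary artery closed by a balloon for 90 min and then reopened, and posterior wall away from the infarct was sampled after 6 months. Group Hyper (n = 3) carried a stent as an artificial stenosis of the aortic isthmus, which overloads the left ventricle (LV), and Control (n = 3) was sham-operated per the labels and untreated per the methods, both followed for 6 months. Anterior LV wall was taken from every group but RemoLV, 1 library was made per pig, and the data of DOX and MYO came from an earlier experiment. Drug, duration, experiment, the presence of Y-linked transcripts and any difference in collection hour cannot be told apart between those 10 libraries and the rest.

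Several libraries went against their labels. Library totals were between 9527710 and 20370209 counts. All 19 columns of expression values in the table deposited with the counts could be paired with 1 count file each by rank order, and 8 columns bore the name of another group than their file: Control and RemoLV had changed places, as had DOX5 and MYO1. The 3 files labelled RemoLV held the atrial myosin light chain MYL4 at 8126, 7344 and 6027 CPM (counts relative to the scaled library size) against at most 21.9 elsewhere, and the ventricular MYL2 at 18.6, 115 and 40.0 CPM against at least 8971 elsewhere. The labels call all pigs female, whereas the Y-linked gene DDX3Y was found at 96.05 to 176.6 CPM in every library of the drug groups and did not exceed 0.137 CPM elsewhere. Groups below follow the count files, and calls in the fit of all libraries that the table's names change are given under both. Correlations among Hyper and Control, spreads inside groups, genes of similar course and medians of the longer list are given by count file only. DOX and MYO together against Hyper keeps the same libraries on each side under both sets of names, RemoLV vs. Control turns round, and the others exchange libraries.

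Sequences near the gene starts were read for matches to the classical clock elements, and elements elsewhere or of other spelling were not searched. Windows of 250 bases before to 50 bases after the start of each gene in the RefSeq annotation of Sscrofa11.1 were searched on both strands for the E-box CACGTG, for the D-box TTATGTAA or TTACGTAA, to which DBP and TEF bind, and for the ROR element, to which ROR and NR1D receptors bind. The E-box was found in 2 of the 10 genes and in 7.92% of 19556 promoters of the same length, the D-box in 1 gene and in 0.936%, and the ROR element in 1 gene and in 0.302%. No match overlapped another. In the stretches printed here, 5′ to 3′ on the strand of the gene, the matches are in capitals. They lie at chr12:53376791-53376836 on the minus strand for PER1, at chr6:68487457-68487633 on the plus strand for PER3 and at chr6:53993060-53993110 on the minus strand for DBP.
PER1: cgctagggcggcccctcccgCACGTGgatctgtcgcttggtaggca
PER3: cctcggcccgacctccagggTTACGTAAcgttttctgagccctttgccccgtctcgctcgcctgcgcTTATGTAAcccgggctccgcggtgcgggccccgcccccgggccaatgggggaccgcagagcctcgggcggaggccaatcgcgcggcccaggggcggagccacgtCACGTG
DBP: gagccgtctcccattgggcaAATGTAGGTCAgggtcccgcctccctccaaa
PER1 held its E-box 93 bases before the start. PER3 held D-boxes 157 and 110 bases before the start and an E-box 6 bases before it, so it was the member with matches to both elements. DBP held the ROR element 46 bases before its start. ARNTL, NPAS2 and TEF were searched in the same way, and only TEF had matches, E-boxes 130 and 20 bases before its start. These are matches of letters in short windows, and binding was not measured.

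Of the 10 genes 3, 6 and 5 were called against Control in DOX, MYO and RemoLV and 0 in Hyper, in shares near or below those of all genes except in MYO. A gene was called when its adjusted p was at most 0.05 in the edgeR quasi-likelihood test over all 13552 genes, and comparisons with Control share the same 3 Control libraries. In DOX vs. Control 3 of the 10 genes were called, NR1D1 and DBP higher and CLOCK lower, where 42.1% of all genes were called (21% higher, 21.1% lower). In MYO vs. Control 6 were called, PER3, NR1D1, DBP and CIART higher and CRY1 and CLOCK lower, beside 42.4% of all genes (20.7% higher, 21.7% lower). In RemoLV vs. Control 5 were called, PER2, PER3 and DBP higher and CRY2 and CLOCK lower, beside 47.2% of all genes (23.1% higher, 24% lower). The median log2 fold change of the 10 genes was -0.11, 0.24 and -0.10 in these comparisons, against 0.03, 0.02 and 0.02 over all genes tested. With the table's names the median of the 10 was 0.16, 0.54 and 0.10.

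Hyper vs. Control gave no call by edgeR among the 10 genes or among all genes (0%), a count over all genes that became 773 without Hyper1 and 2538 without Control2, with 1 of the 10, CLOCK, and 2418 of all genes (17.8%) at an unadjusted p under 0.05. DESeq2 called 312 genes there, CLOCK among them. DOX vs. MYO gave none either (0%), with CRY1 of the 10 and 960 genes (7.08%) at an unadjusted p under 0.05, and DESeq2 called 2 genes, none of them among the 10. RemoLV vs. Hyper gave 2 calls, PER3 higher and CRY2 lower, beside 35.6% of all genes (17% higher, 18.6% lower). DOX and MYO vs. Hyper gave 2, NR1D1 and DBP, both higher, beside 32.6% (15.8% higher, 16.9% lower).

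With the names of the authors' table several of these genes took the other direction against Control. DOX vs. Control then had 6 calls (CRY2, NR1D1, CLOCK and CIART higher, PER2 and PER3 lower), beside 29.6% of all genes. MYO vs. Control had 5 (PER1, NR1D1 and CIART higher, PER2 and CRY1 lower), beside 29.2%, and Hyper vs. Control had 4 (CRY2 and CLOCK higher, PER2 and PER3 lower), beside 35.8%. RemoLV vs. Control kept its 5 called genes with every sign exchanged (47.2%), since those groups swap places. RemoLV vs. Hyper and DOX vs. MYO had no call by edgeR (0% of all genes in each), with 2 and 6 of the 10 at an unadjusted p under 0.05, beside 18.2% and 8.08% of all genes. DOX and MYO vs. Hyper again had 2, NR1D1 and DBP, both higher, beside 32.7%. NR1D1 was called higher in both DOX and MYO under both sets of names.

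**Figure D1:**
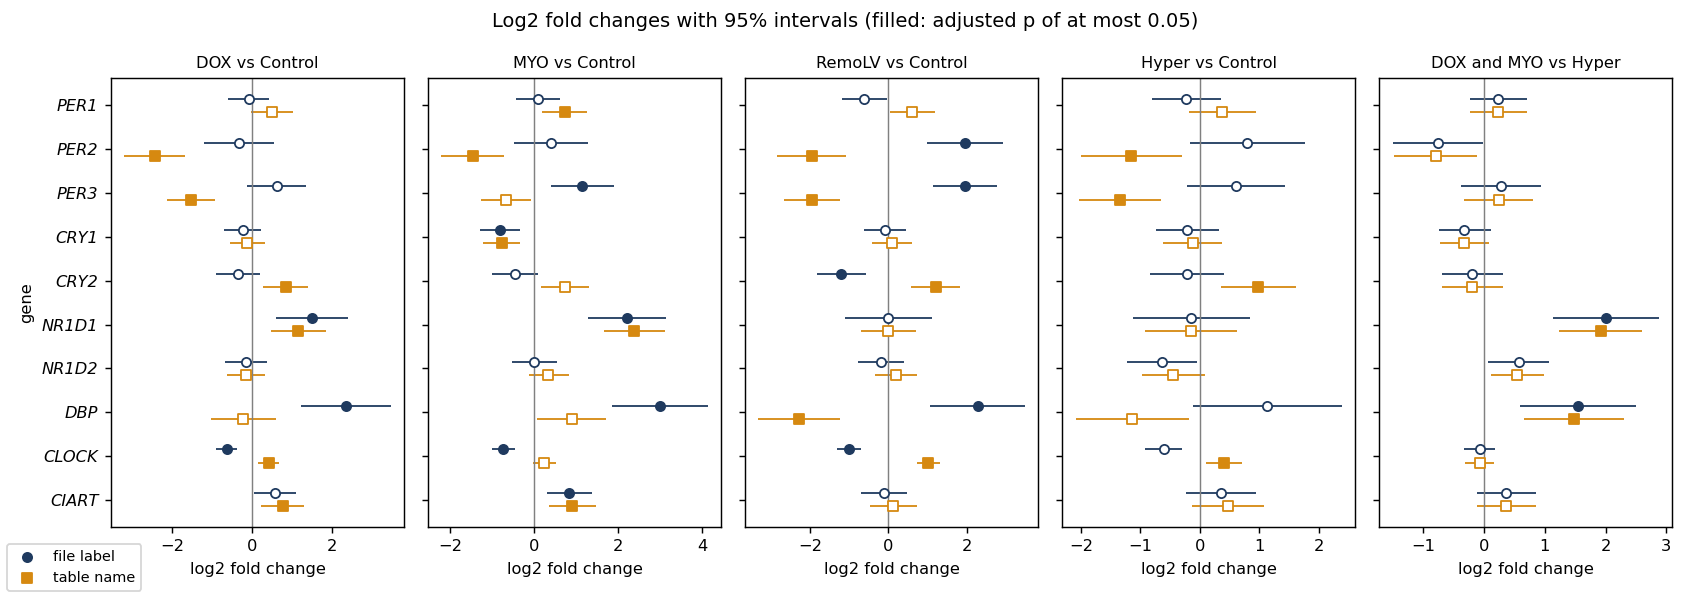
Log2 fold changes (x axis) of the 10 clock genes (y axis) in 5 comparisons, with lines for the 95% interval, circles for groups by count file and squares for groups by the names of the authors' table; filled symbols were called. NR1D1 lies right of 0 and is filled under both names in DOX, in MYO and in DOX and MYO vs. Hyper, whereas CLOCK, PER2, PER3 and DBP change sides between the names in RemoLV vs. Control.

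NR1D1 (REV-ERBα), a nuclear receptor that represses ARNTL and takes part in metabolic control of the heart, was higher in the drug groups against Control and against Hyper under both sets of names. Its levels in DOX were 13.7, 18.4, 16.8, 31.7 and 67.7 CPM in libraries 1 to 5. In MYO they were 36.3, 73.9, 47.7, 55.2 and 26.1 CPM. RemoLV had 14.4, 5.92 and 11 CPM, Hyper 7.83, 11.4 and 8.98 CPM, and Control 11.3, 9.32 and 10.5 CPM. Every MYO library was above all 9 libraries of the other 3 groups, every DOX library was above those of Hyper and Control, and DOX1 was below RemoLV1. The rise was 2.85-fold in DOX vs. Control (log2 fold change 1.51, SE 0.46, adjusted p = 0.014) and 4.61-fold in MYO vs. Control (2.21, SE 0.47, adjusted p = 0.0013). Against Hyper, NR1D1 was 4.01-fold higher in the 10 DOX and MYO libraries (log2 fold change 2.0, SE 0.45, adjusted p = 0.0024), and under the table's names the log2 fold change was 1.92 (SE 0.35, adjusted p = 0.000435). Without Control3 the adjusted p in DOX vs. Control was 0.0503, at a log2 fold change of 1.52, and without DOX5 the log2 fold change was 0.96 and still called. Markers of other cells stood with this result: of 6 fibroblast genes, all tested, COL1A1, COL1A2 and COL3A1 were called higher in DOX and MYO vs. Hyper, with summed levels of 4720 to 7020 CPM in DOX, 4530 to 6600 in MYO, 1530 to 3820 in Hyper, 2030 to 3430 in Control and 10700 to 12300 in RemoLV. Also called higher there were MYL4 and MYL7 of 3 atrial genes tested, VWF and KDR of 4 endothelial, CNN1 of 4 smooth muscle, CD68 of 4 blood and immune and IRX4 of 4 ventricular genes, and TNNT2 was called lower of 4 genes of all cardiomyocytes. Their part in any clock gene result was not tested. DOX5 and MYO2 had the highest levels of NR1D1 in their groups, and the difference between DOX and MYO (-0.70, 95% interval -1.42 to 0.03) was not called (adjusted p = 0.718). It was not called either at -1.25 without DOX5 or at -1.21 with the table's names (95% interval -1.78 to -0.64, adjusted p = 0.286).

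NR1D2 (REV-ERBβ), the close relative of NR1D1, was not called in any of the 7 comparisons with TMM scaling and all libraries. It ranged from 75.4 to 172.4 CPM in DOX, from 105.7 to 134.1 in MYO, from 85.9 to 121.3 in RemoLV, from 53.8 to 115.6 in Hyper and from 83.2 to 155.7 in Control, so all groups overlapped Control. Hyper1 held 115.6 CPM while Hyper2 and Hyper3 held 58.5 and 53.8. Without Hyper1 the log2 fold change was -1.07 in Hyper vs. Control (adjusted p = 0.0485), 0.88 in RemoLV vs. Hyper (adjusted p = 0.0366) and 1.0 in DOX and MYO vs. Hyper (adjusted p = 0.016). With scaling to total counts alone it was called in RemoLV vs. Hyper (0.8, adjusted p = 0.0394) and in DOX and MYO vs. Hyper (0.83, adjusted p = 0.0145).

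DBP, a PAR bZIP transcription factor that binds D-boxes and is among the most strongly rhythmic clock outputs, was the lowest in counts, with 6 counts in 1 library. In DOX it stood at 2.745, 1.78, 1.60, 3.54 and 4.87 CPM. In MYO it stood at 2.06, 3.88, 3.38, 9.95 and 3.38 CPM. RemoLV had 4.36, 1.13 and 2.76 CPM, Hyper 1.17, 1.05 and 1.47 CPM, and Control 0.522, 0.712 and 0.423 CPM. All Control libraries were below all others, and all Hyper libraries were below all DOX and MYO libraries. DBP rose 5.14-fold in DOX vs. Control (log2 fold change 2.36, SE 0.58, adjusted p = 0.00343), 7.98-fold in MYO (3.00, SE 0.58, adjusted p = 0.000582) and 4.83-fold in RemoLV (2.27, SE 0.62, adjusted p = 0.00562). With the table's names it fell by 2.27 on the log2 scale in RemoLV vs. Control, and in DOX (-0.21) and MYO (0.89, adjusted p = 0.117) it was not called. DOX and MYO vs. Hyper gave a log2 fold change of 1.55 (SE 0.49, adjusted p = 0.0211), and 1.48 under the table's names (SE 0.42, adjusted p = 0.0115). This call was lost without Hyper1 (1.51, adjusted p = 0.0906) or Hyper2 (1.45, adjusted p = 0.0835), and RemoLV vs. Hyper was called without RemoLV2 (1.52, adjusted p = 0.049) but not with it (1.14, adjusted p = 0.128).

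PER2 and PER3, period proteins that repress the CLOCK pair, were highest in the libraries labelled RemoLV. PER2 measured 17.0, 12.4 and 27.5 CPM in RemoLV, 10.7, 5.19 and 9.58 in Hyper and 3.51, 6.71 and 4.37 in Control. It measured 4.62, 2.29, 2.80, 3.85 and 5.96 CPM in DOX and 3.80, 7.27, 3.45, 14.2 and 3.72 CPM in MYO. The RemoLV libraries were above all those of DOX, Hyper and Control, and MYO4 lay within their range. PER2 rose 3.86-fold in RemoLV vs. Control (log2 fold change 1.95, SE 0.49, adjusted p = 0.00332) and differed from Hyper by 1.15 without a call (adjusted p = 0.0664), which became a call without MYO4 (1.15, adjusted p = 0.0262) or RemoLV2 (1.38, adjusted p = 0.0495), by DESeq2 (adjusted p = 0.0428), in a fit of the compared groups alone (adjusted p = 0.0255) and with scaling to total counts alone (adjusted p = 0.0272). Without MYO4 it was also called lower in DOX and MYO vs. Hyper (-1.01, adjusted p = 0.02), where the full data gave -0.76 (adjusted p = 0.13). With the table's names, where the libraries with atrial transcripts are the controls, PER2 fell by 2.44 on the log2 scale in DOX, by 1.45 in MYO, by 1.95 in RemoLV and by 1.15 in Hyper.

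PER3 measured 26.3, 14.15 and 24.1 CPM in RemoLV, 11.3, 5.87 and 8.31 in Hyper and 4.55, 8.31 and 3.74 in Control. It measured 7.67, 6.36, 5.80, 9.77 and 13.5 CPM in DOX and 7.68, 13.9, 9.09, 22.4 and 9.05 CPM in MYO. RemoLV did not overlap Hyper or Control, and MYO overlapped Control only through MYO1 and Control2. PER3 rose 3.85-fold in RemoLV vs. Control (log2 fold change 1.94, SE 0.42, adjusted p = 0.000995), 2.23-fold in MYO vs. Control (1.15, SE 0.38, adjusted p = 0.0218) and 2.52-fold in RemoLV vs. Hyper (1.34, SE 0.41, adjusted p = 0.0155). In MYO vs. Control the call was lost without MYO4 (0.84, adjusted p = 0.0641), Control1 (1.03, adjusted p = 0.0831) or Control3 (0.94, adjusted p = 0.114). In RemoLV vs. Hyper it was lost without RemoLV1 (1.16, adjusted p = 0.0613) or Hyper2 (1.13, adjusted p = 0.072). The atrial markers stand with both PER results in RemoLV: 4 of the 6 listed atrial genes were matched, their summed level was 9360 to 12600 CPM in RemoLV, 61.8 to 117 in Control, 174 to 1230 in Hyper, 739 to 1220 in MYO and 1080 to 2390 in DOX, and their part in the result was not tested. In bulk tissue fewer cells of a type and less RNA per cell cannot be told apart.

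PER1, which also answers within minutes to hormones and stress, was not called in any comparison by count file. It ranged from 172.6 to 427.8 CPM in DOX, from 231.0 to 363.8 in MYO, from 139.6 to 230.7 in RemoLV, from 203.6 to 294.3 in Hyper and from 194.9 to 334.4 in Control. The highest value was in DOX1, the library in which the immediate-early genes FOS and ATF3 measured 597 and 2211 CPM against at most 48.9 and 83.4 elsewhere. Their part in the PER1 level was not tested. Without Control2, PER1 was called lower in RemoLV vs. Control (-0.82, adjusted p = 0.0329), against -0.61 (adjusted p = 0.0969) with it.

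CRY1 and CRY2, the cryptochromes that repress transcription together with the PER proteins, were called against Control in separate groups in the fit of all libraries. CRY1 measured 10.5, 9.63, 13.25, 8.74 and 10.5 CPM in MYO and 19.5, 14 and 22.3 in Control, without overlap, and DOX spanned 24.3, 16.5, 16.4, 13.1 and 8.90 CPM. It fell by 0.82 on the log2 scale in MYO vs. Control (SE 0.24, adjusted p = 0.0113) and by 0.77 with the table's names (adjusted p = 0.0161). The call was lost without Control3 (-0.66, adjusted p = 0.0776) and with scaling to total counts alone (-0.36, adjusted p = 0.198).

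CRY2 measured 82.9, 66.1 and 99.8 CPM in RemoLV, 195.9, 126.8 and 168.3 in Hyper and 214.8, 136.2 and 218.8 in Control, so that RemoLV lay below both. It fell by 1.2 on the log2 scale in RemoLV vs. Control (SE 0.32, adjusted p = 0.00539) and by 0.98 in RemoLV vs. Hyper (SE 0.32, adjusted p = 0.0231). The second call was lost without RemoLV1 (-0.98, adjusted p = 0.0596), RemoLV2 (-0.85, adjusted p = 0.0911) or Hyper1 (-0.84, adjusted p = 0.0857), and scaling to total counts alone lost both (-0.64 in each, adjusted p = 0.0758 and 0.0965). In DOX, CRY2 measured 288.9 CPM in library 1 and 124.1, 90.1, 108.9 and 133.0 in the others. Without DOX1 it was called lower in DOX vs. Control (-0.75, adjusted p = 0.00405), and with DOX1 it was not (-0.35, adjusted p = 0.332). The same held in MYO vs. Control (-0.46, adjusted p = 0.0416, without DOX1, which then no longer enters the shared estimate of spread, and -0.45, adjusted p = 0.206, with it). CRY2 was also called lower in MYO vs. Control in a fit of the compared groups alone (-0.47, adjusted p = 0.0411).

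CLOCK, the activator that pairs with ARNTL, was highest in Control. It measured 79.5, 53.5 and 99.7 CPM in Control, 49.9, 51.3 and 51.5 in Hyper and 36.2, 39.2 and 39.8 in RemoLV. It measured 57.1, 49.6, 51.9, 49.4 and 43.2 CPM in DOX and 49.8, 49.0, 47.3, 40.7 and 46.8 CPM in MYO. In these TMM-scaled values Control lay above MYO, RemoLV and Hyper without overlap, and DOX1 was above Control2. Control1 and Control3 had the lowest TMM factors of the 19 libraries (0.735 and 0.696), which raises their CPM relative to scaling by total counts. CLOCK fell by 0.63 on the log2 scale in DOX (SE 0.14, adjusted p = 0.00167), by 0.73 in MYO (SE 0.14, adjusted p = 0.00049) and by 1.01 in RemoLV (SE 0.16, adjusted p = 6.43e-05), and the difference of -0.61 in Hyper was not called (adjusted p = 0.124) except without Control2 (-0.82, adjusted p = 0.000463) or by DESeq2 (-0.62, adjusted p = 0.0238). In RemoLV vs. Hyper the difference of -0.41 (adjusted p = 0.053) was called without Control2 (adjusted p = 0.0072) or Control3 (adjusted p = 0.0209), the Control libraries entering that test only through the shared spread. That difference was also called in a fit of the compared groups alone. Without Control3 the difference in DOX was -0.4 and still called. Scaling to total counts alone ended the calls in DOX (-0.16, adjusted p = 0.251) and MYO (-0.26, adjusted p = 0.0586). The table's names turned the direction, with CLOCK called 0.43 higher in DOX, 0.41 in Hyper and 1.01 in RemoLV. Control1 and Control3, the libraries highest in CLOCK, also had the highest HBB (336.6 and 325.1 CPM against 35.1 in Control2 and at most 189 elsewhere), the haemoglobin gene of red cells, and its part in the CLOCK level was not tested.

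CIART, a repressor of the CLOCK pair, ranged from 20.9 to 46.2 CPM in MYO and from 13.7 to 20.7 in Control, without overlap. It rose 1.79-fold in MYO vs. Control (log2 fold change 0.84, SE 0.27, adjusted p = 0.0194), a call lost without MYO4 (0.67, adjusted p = 0.0533), Control2 (0.69, adjusted p = 0.0789) or Control3 (0.88, adjusted p = 0.0537). In DOX it ranged from 18 to 38.1 CPM (0.59, adjusted p = 0.0885, and 0.70 with adjusted p = 0.0498 without DOX3), and with the table's names it was called in both drug groups (0.77 and 0.91). In RemoLV vs. Hyper it was called lower without RemoLV1 (-0.90, adjusted p = 0.0332), which at 24.3 CPM was far above RemoLV2 and RemoLV3 (12.35 and 11.7 CPM).

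**Figure D2:**
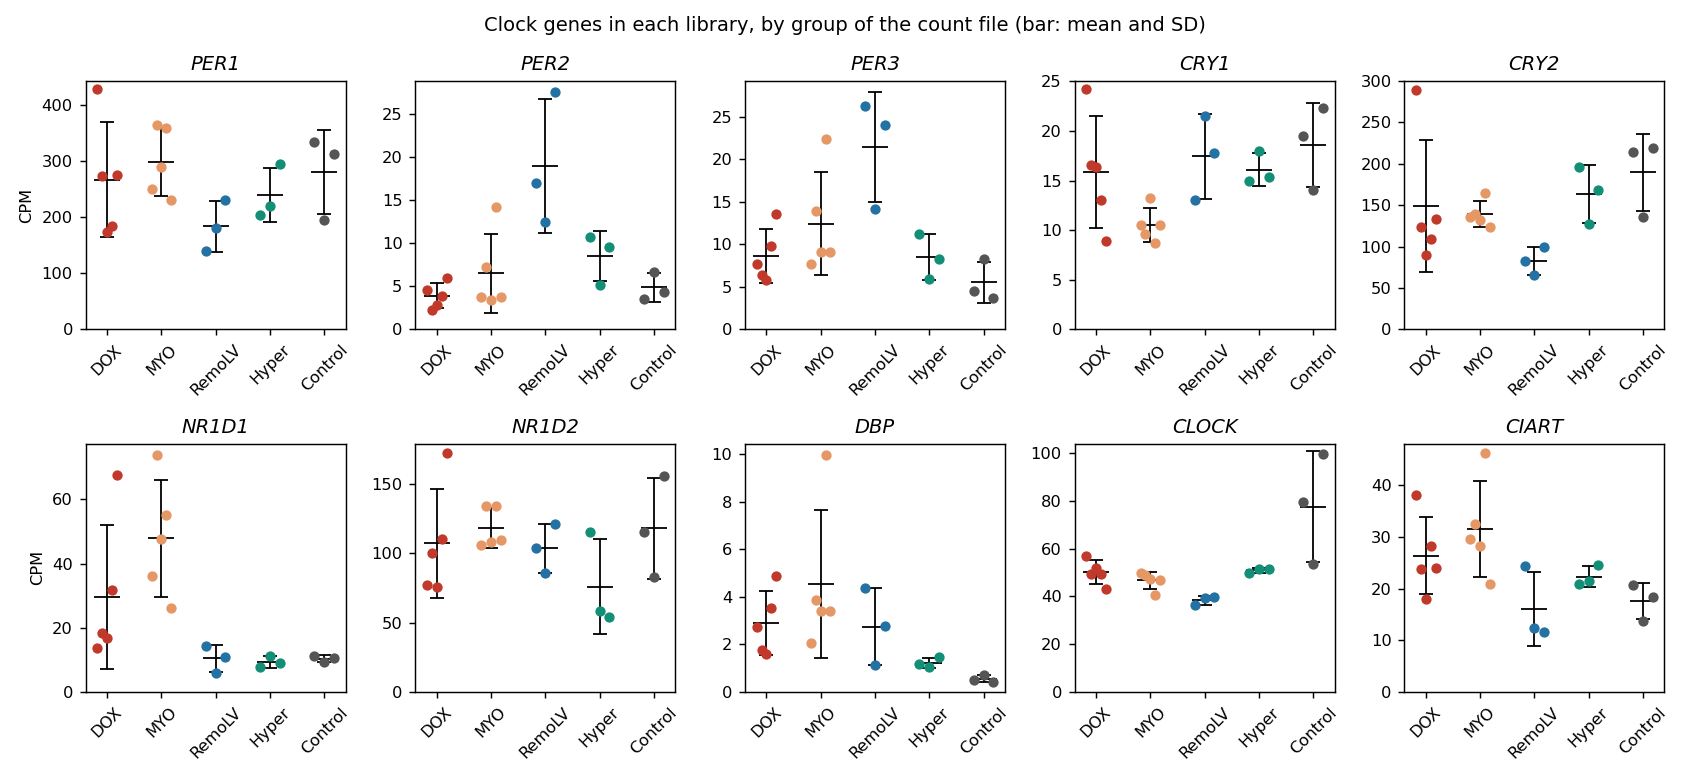
Level of each clock gene in CPM (y axis, from 0) in each library (points) of the 5 groups by count file (x axis), with a bar for the mean and SD of each group. NR1D1 is raised in DOX and MYO, DBP is lowest in Control, PER2 and PER3 are highest in RemoLV, and single libraries such as DOX1 for CRY2 (288.9 CPM) and MYO4 for DBP (9.95 CPM) stand far from their group.

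Levels of several clock genes varied together among the 10 DOX and MYO pigs, which share tissue site, follow-up and experiment. Over 65 pairs (45 between the 10 genes and 20 with ARNTL or NPAS2) Pearson correlations of log2 CPM were tested by 2-sided permutation with 100000 resamples and adjusted over the 65. By r 25 pairs passed, 11 positive and 14 negative (36 at an unadjusted p under 0.05), and 31 passed by Spearman's rho. How many pairs of other genes would pass in these libraries was not tested. The count was 17 when group means were removed first, and between 13 (without DOX3) and 49 (without DOX1) when 1 library was left out, with 16 without MYO4.

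PER2, PER3 and DBP varied together across these 10 pigs. PER3 and DBP had r = 0.967 (permutation p = 1e-05, the smallest the resamples can give, adjusted 0.00065) and rho = 0.976 (permutation p = 2e-05). PER2 and PER3 had r = 0.945 (permutation p = 0.00021, adjusted 0.00273) and rho = 0.818 (permutation p = 0.00578), and PER2 and DBP had r = 0.904 (permutation p = 0.00059, adjusted 0.00426) and rho = 0.830 (permutation p = 0.00447). Without the 2 libraries farthest from the median, r was 0.901, 0.821 and 0.791 in these pairs. The call of PER2 with DBP was lost without MYO4 (0.773, permutation, adjusted p = 0.0519).

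ARNTL moved against them. Its level was 13.4, 15.5, 19.5, 13.8 and 8.40 CPM in DOX and 10.4, 6.72, 14.9, 3.63 and 13.2 CPM in MYO, lowest in DOX5 and MYO4, the libraries with the most PER2, PER3 and DBP in their groups. ARNTL had r = -0.953 with PER2 (permutation p = 0.00012, adjusted 0.00211; rho = -0.891, permutation p = 0.00114) and r = -0.933 with PER3 (permutation p = 0.00035, adjusted 0.00284; rho = -0.806, permutation p = 0.00724). With DBP it had r = -0.851 (permutation p = 0.00264, adjusted 0.0123; rho = -0.770, permutation p = 0.0125), and with NR1D1 r = -0.704 (permutation p = 0.0176, adjusted 0.0473; rho = -0.721, permutation p = 0.0233). Without the 2 farthest libraries r was -0.792, -0.799, -0.496 and -0.706 in that order, so the relation with DBP rested in part on those libraries. The call with DBP was lost without MYO4 (r = -0.646, permutation, adjusted p = 0.144) or DOX3 (r = -0.817, adjusted p = 0.052). The call with NR1D1 was lost without any 1 of 7 libraries (r from -0.71 to -0.645), with group means removed (r = -0.605, permutation, adjusted p = 0.13) and with the size factors of DESeq2 (r = -0.702, adjusted p = 0.0504).

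NPAS2, the alternative partner of CLOCK, had r = -0.921 with DBP (permutation p = 0.00013, adjusted 0.00211), -0.897 with PER3 (permutation p = 0.00029, adjusted 0.00284) and -0.827 with PER2 (permutation p = 0.00172, adjusted 0.0086), with rho of -0.927, -0.915 and -0.830 (permutation p = 0.00038, 0.00054 and 0.0047). Without the 2 farthest libraries r was -0.893, -0.817 and -0.707, and the call of PER2 with NPAS2 was lost without MYO4 (-0.751, permutation, adjusted p = 0.0564). CRY1 varied with CLOCK: it had r = 0.845 (permutation p = 0.00126, adjusted 0.00682; rho = 0.830, permutation p = 0.0048) and r = -0.865 with NR1D1 (permutation p = 0.0011, adjusted 0.0065; rho = -0.830, permutation p = 0.00526), and 0.742 and -0.762 without the 2 farthest libraries. With ARNTL and NPAS2, CRY1 was not called by r (0.688, permutation p = 0.0266, adjusted 0.0603, and 0.51, permutation p = 0.132, adjusted 0.19), while its rho with ARNTL passed (0.842, permutation p = 0.00372, adjusted 0.0186) and that with NPAS2 did not (0.636, permutation p = 0.0548, adjusted 0.0937). NR1D1 and NR1D2 had r = 0.895 (permutation p = 0.00033, adjusted 0.00284; rho = 0.879, permutation p = 0.00163), and PER1 and CRY2 r = 0.858 (permutation p = 9e-05, adjusted 0.00211; rho = 0.903, permutation p = 0.00092), with 0.867 and 0.862 without the 2 farthest libraries. PER1 was not called with ARNTL (r = -0.552, permutation p = 0.0976, adjusted 0.144; rho = -0.515, permutation p = 0.135).

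**Figure D3:**
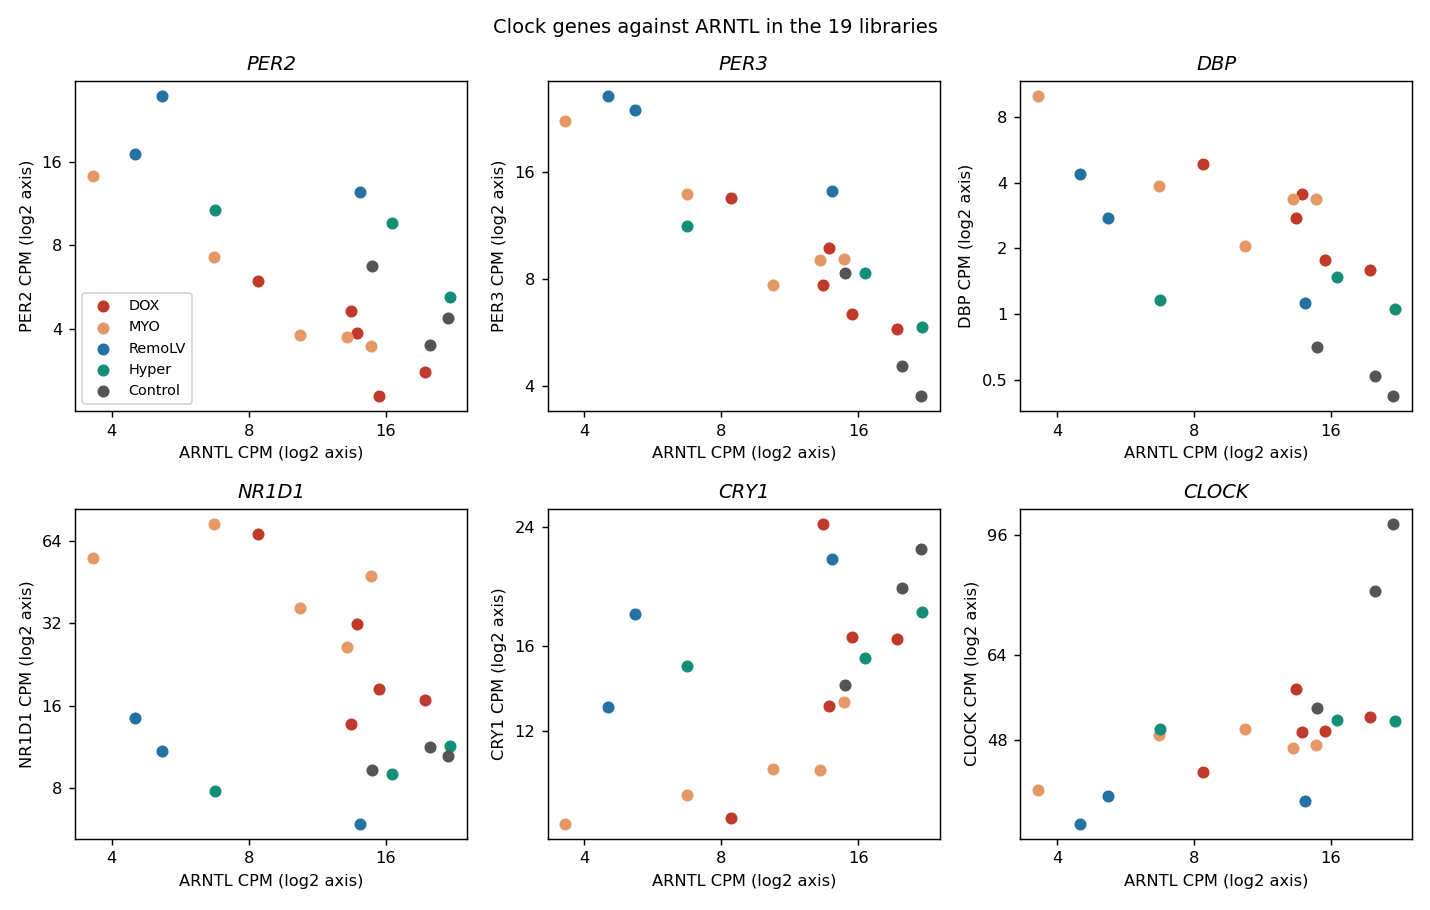
Levels of 6 clock genes in CPM (y axes) against ARNTL in CPM (x axes), both on log2 axes, with 1 point for each of the 19 libraries coloured by group of the count file. In DOX and MYO points PER2, PER3 and DBP fall as ARNTL rises (r = -0.953, -0.933 and -0.851), and for NR1D1 the DOX and MYO points lie apart from Hyper and Control.

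The 6 Hyper and Control libraries gave no pair past the threshold among 65, with 15 at an unadjusted exact permutation p under 0.05 over 720 pairings and a lowest adjusted value of 0.129. PER3 and ARNTL had r = -0.828 there (exact permutation p = 0.0236, adjusted 0.171; rho = -0.829, exact permutation p = 0.0583), and PER2 and ARNTL r = -0.768 (exact permutation p = 0.0389, adjusted 0.175; rho = -0.714, exact permutation p = 0.136). NR1D1 and ARNTL had r = 0.898 (exact permutation p = 0.0125, adjusted 0.129; rho = 0.886, exact permutation p = 0.0333), of the other sign than in DOX and MYO, a difference that was not tested. Without the 2 farthest libraries r was -0.802, -0.770 and 0.798 for PER3, PER2 and NR1D1.

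The order of libraries inside each group showed the same arrangement in all 5 groups for PER3. The library lowest in ARNTL was the one highest in PER3 in 5 of 5 groups (DOX5, MYO4, RemoLV1, Hyper1 and Control2), and 4 of 5 with the table's names. It was highest in PER2 in 4 groups and in DBP in 4, against 3 and 3 with the table's names. NR1D1, CIART, CRY2 and NR1D2 had no single arrangement by count file: the library was highest in NR1D1 in 2 groups and lowest in 2, the same in CIART, and highest in 2 and lowest in 1 in both CRY2 and NR1D2. It was lowest in CRY1 in 5 of 5 groups under both sets of names and lowest in CLOCK in 5 of 5 groups (4 with the table's names). For PER1 it was never the highest and in 3 groups the lowest. Hyper1, with 6.73 CPM of ARNTL against 22.1 and 16.6 in Hyper2 and Hyper3, had PER3 at 11.3 CPM against 5.87 and 8.31. Control2, with 15.0 CPM of ARNTL against 20.0 and 22.0, had PER3 at 8.31 CPM against 4.55 and 3.74. These counts describe the libraries and were not tested.

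**Figure D4:**
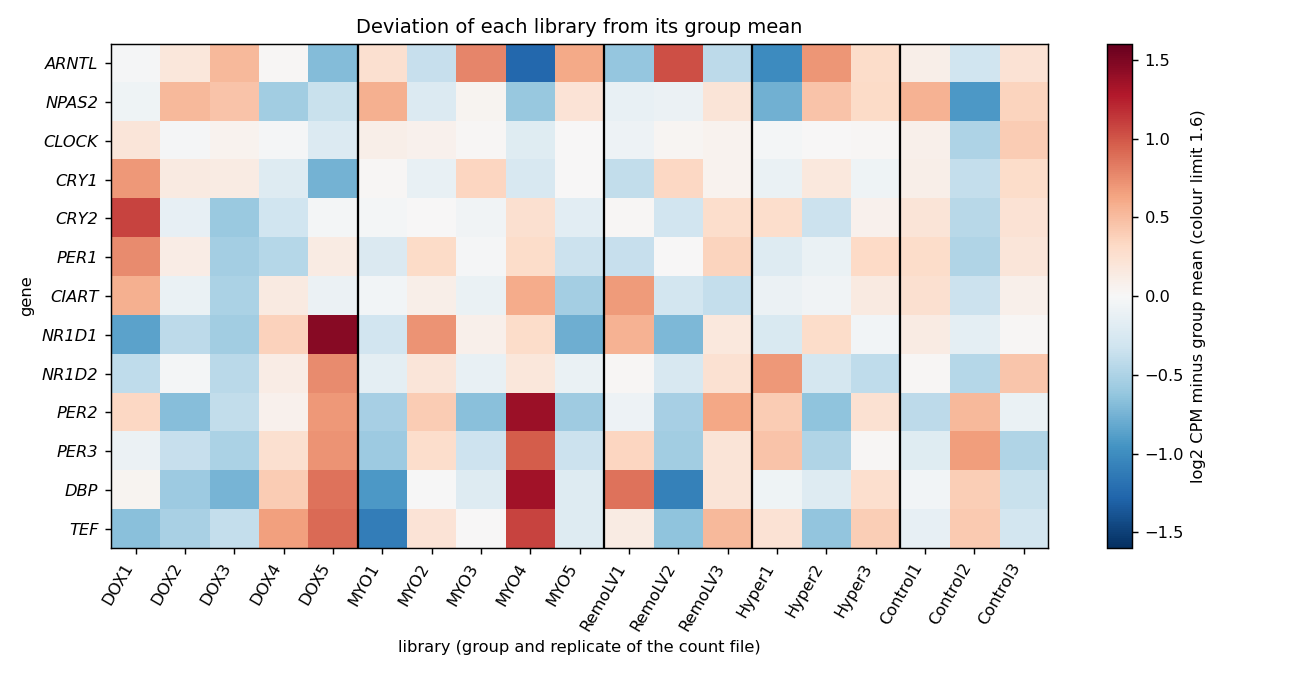
Colour gives log2 CPM minus the mean of the group for 13 clock genes (rows) in the 19 libraries (columns, groups by count file parted by lines), red above and blue below the mean. In DOX5 and MYO4 ARNTL is below its group mean while PER2, PER3, DBP and TEF are above it, and DOX1 is above its group mean in CRY1, CRY2, PER1 and CIART.

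The spread inside groups was wide for these genes. The SD of log2 CPM around the group means was 0.666 for DBP, 0.642 for PER2 and NR1D1, 0.539 for PER3, 0.416 for CRY2, 0.407 for NR1D2, 0.401 for PER1, 0.396 for CIART, 0.362 for CRY1 and 0.200 for CLOCK. The median over all genes tested was 0.265, and 9 of the 10 genes were above it, all but CLOCK. The median percentile of the 10 among the 13552 genes was 73. Genes with few counts vary more through counting alone, and the part of this in the SD of DBP and PER2 was not tested. The SD of CLOCK was 0.453 in Control and at most 0.145 in the other groups.

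Genes of most similar course were searched over the 19 libraries after removal of group means, and r is given as a description. PER2 and PER3 were nearest to each other (0.889). TEF, a PAR bZIP factor related to DBP, came next for PER3 (0.876), followed by DBP (0.876), and for DBP the nearest gene was PER3, with TEF among its 3 nearest (0.847). For the others the nearest genes were outside the clock list: NDEL1 for CRY2 (0.943), PPP2CA for CLOCK (0.949), CCN2 for CRY1 (0.898), SPSB1 for PER1 (0.884), NAA50 for NR1D2 (0.837), LFNG for NR1D1 (0.834) and, the gene that the files name VP26B, for CIART (0.792). All points share the 19 libraries, and DOX1 and the Control libraries stand apart in several of these genes.

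The longer list of clock genes, fixed beside the 10, held 26 genes, of which 22 were tested. In DOX vs. Control 6 were called higher and 7 lower, in MYO 4 and 8, in RemoLV 5 and 8, and in Hyper none by edgeR (3 at an unadjusted p under 0.05), where 42.1%, 42.4%, 47.2% and 0% of all genes were called. With the table's names 7 were higher and 3 lower in DOX (29.6% of all genes called), 5 and 4 in MYO (29.2%), 8 and 5 in RemoLV (47.2%) and 6 and 2 in Hyper (35.8%). By count file the medians of the list were -0.08, -0.11, -0.04 and -0.10 against 0.03, 0.02, 0.02 and 0.01 over all genes. DOX vs. MYO gave none by edgeR (2 at an unadjusted p under 0.05, beside 7.08% of all genes), RemoLV vs. Hyper 2 higher and 6 lower beside 35.6% of all genes (none by edgeR with the table's names, where 3 of the list and 18.2% of all genes were at an unadjusted p under 0.05), and DOX and MYO vs. Hyper 3 and 3 under both sets of names, beside 32.6% of all genes by count file.

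Among ARNTL's regulators, RORA, a receptor that activates ARNTL through the element that NR1D1 blocks, was lower in DOX and MYO than in Hyper whichever names were used. RORA was 4.0 to 7.42 CPM in DOX and 3.20 to 4.75 in MYO against 8.38 to 10.3 in Hyper, without overlap. The summed level of the 3 ROR receptors was also low in RemoLV (10.3 to 18.6 CPM). It was 16.5 to 30.7 in DOX, 14.4 to 29.7 in MYO, 36.3 to 44.8 in Hyper and 36.6 to 40.0 in Control. It fell by 1.04 on the log2 scale in DOX and MYO vs. Hyper (SE 0.19, adjusted p = 0.000424) and by 1.02 with the table's names (adjusted p = 0.00125).

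BHLHE40 and BHLHE41 (DEC1 and DEC2), which compete with the CLOCK pair at E-boxes, rose in DOX and MYO vs. Hyper by log2 fold changes of 1.94 (SE 0.59, adjusted p = 0.0179) and 1.53 (SE 0.25, adjusted p = 0.000169). With the table's names they were 1.98 (adjusted p = 0.0217) and 1.54 (adjusted p = 0.000469). BHLHE40 was 384 CPM in DOX1 and 185 in DOX5 against 39.0 to 111 in the other DOX and MYO libraries. The kinase CSNK1D, which marks PER proteins for decay, rose by 0.37 (adjusted p = 0.0172), and NAMPT, the enzyme of NAD+ salvage, fell by 0.44 (adjusted p = 0.0358).

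TEF rose by a log2 fold change of 1.33 in DOX, 1.67 in MYO and 1.49 in RemoLV vs. Control (SE 0.46, 0.47 and 0.50, adjusted p = 0.0278, 0.00806 and 0.0209). NFIL3, which competes with DBP and TEF at D-boxes, fell by 1.78, 2.50 and 3.52 in the same comparisons (adjusted p = 0.00778, 0.000729 and 0.000201), and it was 149 and 225 CPM in Control1 and Control3 against 42.9 in Control2. In RemoLV vs. Control ARNTL fell by 1.24 (SE 0.49, adjusted p = 0.0435) and NPAS2 rose by 1.06 (SE 0.37, adjusted p = 0.0248). With the table's names all these signs turn in RemoLV vs. Control. TEF was then -0.53 in DOX (adjusted p = 0.269) and 0.43 in MYO (adjusted p = 0.392), without a call, and NFIL3 was called higher in DOX (1.78, adjusted p = 0.02) and not called in MYO (0.96, adjusted p = 0.191).

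Genes that answer to glucocorticoid hormone, a daily signal to PER1 and other clock genes, were measured as a list of 6. FKBP5 was 33.8 to 119 CPM in DOX and MYO libraries against 222 to 309 in Hyper and 181 to 290 in Control, and 41.4 to 74.3 in RemoLV. By count file 4 of the 6 (FKBP5, ZBTB16, KLF9 and SGK1) were called lower in RemoLV vs. Control (24% of all genes called lower) and in RemoLV vs. Hyper (18.6%), the former with the signs turned and the latter with no call under the table's names. In DOX and MYO vs. Hyper 3 of the 6 were called, all lower, where 32.6% of all genes were called and 16.9% called lower: FKBP5 (-1.86, adjusted p = 6.83e-05), ZBTB16 (-1.47, adjusted p = 0.0039) and KLF9 (-0.40, adjusted p = 0.04). Their part in the clock gene levels was not tested.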

How the data were processed

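RNA-seq of myocardium from 19 pigs was used, 1 library per pig. Per the labels the authors used STAR on the Sscrofa11.1 genome and HTSeq 0.11.1 for read pairs per gene, and the deposited files hold raw counts without normalization. The authors' table of 14744 genes has log2-like expression values deposited by the authors, transformed from those counts, used here only to pair its sample names with the count files, as well as the log2 fold changes and adjusted p-values of the authors' own DESeq2 comparisons, which were not used.

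Counts were scaled by TMM and tested by the quasi-likelihood method of edgeR 4.0.16 in R 4.3.3, in 1 model of the 5 groups, with genes kept by filterByExpr and Benjamini-Hochberg adjustment over all genes tested. CPM are counts relative to the TMM-scaled library size, and they are not divided by gene length, so levels of different genes are not compared. SE is the log2 fold change divided by the square root of the test's F, and 95% intervals use SE and the normal distribution. Such intervals are narrower than the test implies. For PER1 in RemoLV vs. Control the interval was -1.19 to -0.03 at a quasi-likelihood p of 0.0533. Correlations used log2 CPM with a prior count of 2 in Python 3.11.15 (numpy 2.4.6). DESeq2 1.42.0, other scalings and filters, a replicate block, the table's names and leaving out each library were alternatives. The fits and the permutation test were tested on simulated data.

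Named genes are the 10 core clock genes, genes of the longer clock list and, for each of the 10, the 3 genes of most similar course, of which those named in the text are the first and any clock gene. Members, lists and tests were chosen with earlier results of these data known. Of the clock list, ARNTL2, CSNK1E and FBXL21 had no match by symbol and RORB was not kept by the filter. Another gene of that list is counted with it and not reported here. Replicates are separate pigs.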

Additional observations from a re-analysis of the deposited data

Results flagged for a closer look

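CRY2 in DOX: library DOX1, at 288.9 CPM, lay far from the other 4 of its group (90.1 to 133.0 CPM). DBP in MYO: library MYO4, at 9.951 CPM, lay far from the other 4 (2.06 to 3.88 CPM). Both exceeded the limit for an outlying library among 20 groups examined, where chance gives about 1 in 20.

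The effects of RemoLV and Hyper, both taken against the same controls, differed for 2 clock genes by the direct test of RemoLV vs. Hyper: PER3 by 1.34 on the log2 scale (adjusted p = 0.0155, higher in 3 of 3 RemoLV libraries) and CRY2 by -0.98 (adjusted p = 0.0231, lower in 3 of 3). Of all genes 35.6% were called in that test. With the table's names neither difference was called, and 0% of all genes were.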

How the results depend on the processing

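Which samples are called Control decides most directions here, and the names of the files and of the table cannot both be right. No hour of collection is known, groups hold 3 to 5 pigs, the Control libraries are shared by every comparison with Control, and DBP rests on few counts. Unless a cause is given, the cause of a change was not tested.

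With the names of the authors' table the calls among the 10 genes went from 3 to 6 in DOX vs. Control, from 0 to 4 in Hyper vs. Control and from 2 to 0 in RemoLV vs. Hyper. Among all genes, calls were then 4008 and 3951 in place of 5704 and 5748 in DOX and MYO vs. Control, 4856 in place of 0 in Hyper vs. Control and 0 in place of 4818 in RemoLV vs. Hyper. These names exchange the libraries of Control and RemoLV and also DOX5 with MYO1, so RemoLV vs. Control turns by construction and every other comparison but DOX and MYO vs. Hyper is made on other libraries. In DOX vs. Control PER1 became 0.51, PER3 -1.52, CRY2 0.85, DBP -0.21 and CLOCK 0.43. In MYO vs. Control PER2 became -1.45, PER3 -0.66, CRY2 0.74 and CLOCK 0.24. In RemoLV vs. Control PER1 became 0.61, PER2 -1.95, PER3 -1.94, CRY1 0.09, CRY2 1.2, NR1D2 0.19, DBP -2.27, CLOCK 1.01 and CIART 0.12. In Hyper vs. Control PER1 became 0.38, PER2 -1.15, PER3 -1.34, CRY2 0.98, DBP -1.14 and CLOCK 0.41. In RemoLV vs. Hyper PER1 became 0.23, PER2 -0.8, PER3 -0.61, CRY2 0.21, DBP -1.13 and CLOCK 0.61.

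Scaling to total counts alone moved the median log2 fold change of all genes to 0.45 (DOX), 0.44 (MYO), 0.52 (RemoLV) and 0.17 (Hyper) against Control, and to 0.36 in RemoLV vs. Hyper and 0.28 in DOX and MYO vs. Hyper. Higher calls were then 5622 of 6327 in place of 2842 of 5704 in DOX, 5499 of 6252 in place of 2804 of 5748 in MYO, 6178 of 7216 in place of 3136 of 6393 in RemoLV, 4118 of 5082 in place of 2300 of 4818 in RemoLV vs. Hyper and 3894 of 4654 in place of 2136 of 4422 in DOX and MYO vs. Hyper. Directions that turned were PER1 0.38, PER2 0.05, CRY1 0.22, CRY2 0.1 and NR1D2 0.34 in DOX, CRY2 0.02 in MYO, CRY1 0.45, NR1D2 0.37 and CIART 0.41 in RemoLV, NR1D1 0.02 in Hyper, and CRY2 0.06 and CLOCK 0.19 in DOX and MYO vs. Hyper, all below the shift of all genes in the same comparison. Upper-quartile scaling turned CRY1 (0.04) and CIART (0.01) in RemoLV vs. Control. DESeq2 called 1 of the 10 genes in Hyper vs. Control (312 of all genes), a fit of the compared groups alone called 4 in RemoLV vs. Hyper, and a minimum of 10 counts in every library left 1 in DOX and MYO vs. Hyper, since it removes DBP. A fit without the 3 libraries labelled RemoLV changed no count among the 10 genes.

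Leaving out 1 library gave 3 to 7 calls among the 10 genes in MYO vs. Control (3 without Control3), 0 to 1 in Hyper vs. Control (1 without Hyper1 or Control2, where calls over all genes rose from 0 to 773 and 2538), 1 to 3 in RemoLV vs. Hyper (1 without RemoLV1 or Hyper2), 1 to 3 in DOX and MYO vs. Hyper (1 without Hyper2), and 13 to 49 called pairs of genes in DOX and MYO. Log2 fold changes that lay on both sides of 0 in these fits ranged from -0.32 to 0.07 (PER1) and -0.38 to 0.11 (NR1D2) in DOX vs. Control, from -0.12 to 0.23 (PER1), -0.09 to 0.71 (PER2) and -0.2 to 0.25 (NR1D2) in MYO vs. Control, from -0.55 to 0.05 (CIART), -0.27 to 0.08 (CRY1), -0.39 to 0.06 (NR1D2) and -0.32 to 0.29 (NR1D1) in RemoLV vs. Control, from -0.07 to 0.29 (CRY1) and -0.17 to 0.44 (NR1D1) in RemoLV vs. Hyper, and from -0.29 to 0.24 (CRY2) in DOX vs. MYO. Pairs of genes in Hyper and Control were not tested with 1 library left out, which leaves under 6.

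Replicate numbers did not pair the libraries: over 32 pairs of equal number from different groups the correlation of deviations was -0.246 to 0.242 (median 0.00687, 4 over 0.1), and 4 of 19 libraries correlated best with one of their own number. With the number as a replicate block the calls against Control were 2 (DOX), 4 (MYO), 5 (RemoLV) and 0 (Hyper), with 0 in DOX vs. MYO, 2 in RemoLV vs. Hyper and 1 in DOX and MYO vs. Hyper. Over all genes the calls were then 4793, 4801, 6104, 0, 0, 4493 and 3609 in that order, in place of 5704, 5748, 6393, 0, 0, 4818 and 4422. NR1D1 in DOX (1.06, adjusted p = 0.115), PER3 in MYO (0.83, adjusted p = 0.0928), CRY1 in MYO (-0.61, adjusted p = 0.0666) and DBP in DOX and MYO vs. Hyper (1.04, adjusted p = 0.0915) were then not called, PER1 in DOX was 0.01 and PER3 in DOX and MYO vs. Hyper was -0.04.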
